A study of Mus musculus with 8 samples.

Results

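Smooth muscle cells that lacked an E2A isoform were compared with cells that carried it, pooling both isoforms. The cells were primary smooth muscle cells from mouse aorta, labelled E12 WT, E12 KO, E47 WT or E47 KO, and each genotype gave 2 libraries from separate extractions, 8 in all. Cells of every genotype had been frozen, were revived in culture dishes and were lysed in Trizol, with no treatment named. The labels give no age, no strain, no way in which a knockout was made and no relation of the E12 lines to the E47 lines, so a genotype may stand for a single line of cells. Each side of the comparison therefore held 4 libraries but only 2 genotypes, and p-values within a line rest on how far 2 extractions differ, a spread that may be technical. The genes described here are those whose 4 knockout libraries (E12 KO and E47 KO) all lay above, or all lay below, the 4 wild-type libraries (E12 WT and E47 WT). Values are in CPM, a gene's reads divided by the library's reads and scaled to a fixed total, after TMM scaling (trimmed mean of M values) between libraries. Of 13992 genes tested, 2017 (14.4%) met this rule, 1019 (7.28%) with the knockouts higher and 998 (7.13%) with the knockouts lower. The rule reads the same values that the report gives, so the levels of these genes are a description.

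E12 and E47 are proteins made from the same gene, Tcf3 (E2A), by a choice between exons that encode the basic helix-loop-helix domain. E proteins pair with each other or with tissue-restricted partners such as Twist2 and bind the E-box, a short palindromic DNA sequence. Id proteins lack the basic, DNA-contacting region and hold E proteins away from DNA. The balance between E and Id proteins is known for its part in growth and differentiation.

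Total counts ran from 13909230 to 27517374 per library. Of the smooth muscle markers, Acta2 was between 1626 and 3693 CPM, but others were scarce. Tagln was between 0.781 and 1.85 CPM in the 4 E12 libraries and at most 18.5 CPM in E47, Actg2 was at most 0.598 CPM in E12, and Kcnmb1 was at most 0.201 CPM outside the E47 wild type. The E47 wild type stood apart. The summed level of 17 endothelial markers was 738 and 812 CPM there and between 21.7 and 47.7 CPM in the other 6 libraries, with Pecam1 at 194 and 211 CPM against at most 2.24 CPM and Cldn5 at 0 throughout. Xist, the X-inactivation RNA, was at 7.31 and 7.72 CPM in those 2 libraries and at most 0.120 CPM elsewhere, while the Y-linked Ddx3y was expressed in all 8. In bulk RNA, fewer cells of a type and less RNA per cell cannot be told apart. With both E47 wild-type libraries left out, a setting chosen after seeing the data, 2249 genes lay higher and 2315 lower. Leaving libraries out of this rule can only add genes, and no other pair was left out, so the rise does not single out these 2 libraries. The 2 wild types differed in 7747 genes (55.4% of those tested, edgeR quasi-likelihood test, adjusted p under 0.05). Among the 2017 genes of the rule the share was 42.3%, a figure that the rule itself lowers, since it asks that both wild types lie on the same side of the knockouts.

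Most of the gaps between the sides were narrow. The lowest library of the higher side was a median 1.09 times the highest library of the lower side among genes with higher knockouts, and 1.10 times among those with lower knockouts. A gap of at least 1.2 times was seen in 241 higher genes (1.72%) and 287 lower genes (2.05%), and of at least 2 times in 37 (0.264%) and 52 (0.372%). Genes with higher knockouts made up 4.87% to 5.76% of the counts of a wild-type library and 7.47% to 8.37% of a knockout library. Those with lower knockouts made up 14% to 16% and 9.72% to 11.3%. The balance between the directions rests on the scaling. With raw library totals, which place the knockouts 0.124 higher on the log2 scale than TMM does, 1814 genes lay higher and 577 lower. Changes are therefore given relative to the TMM scale.

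With the genotype as the unit, no gene passed edgeR's test. Each genotype's 2 libraries were summed to a profile, and 2 knockout profiles were compared with 2 wild-type profiles by edgeR's quasi-likelihood test. It called 0 of 13992 genes (0%), with a smallest adjusted p of 0.995 and 360 genes (2.57%) at an unadjusted p under 0.05. With the line (E12 or E47) as a block it also called 0, with 778 genes (5.56%) at an unadjusted p under 0.05. DESeq2 on the same 4 profiles called 15 higher and 36 lower, of which 15 and 31 had libraries that did not overlap. For a single gene, an exact permutation of 2 against 2 genotypes has 3 arrangements and cannot go below a two-sided p of 0.333. Il33 had the lowest DESeq2 adjusted p (4.4e-08), followed by Gatm (6.1e-06) and Bche (6.1e-06).

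Taken line by line, with each knockout against its own wild type in a model of all 8 libraries, the E12 knockout was higher in 3065 genes (21.9%) and lower in 3426 (24.5%), and the E47 knockout in 3876 (27.7%) and 3853 (27.5%). These 2 contrasts share no library. Both called 2257 genes (16.1%) in the same direction, 1050 (7.5%) up and 1207 (8.63%) down, and 1849 genes (13.2%) in opposite directions, 741 (5.3%) up in E12 and down in E47 and 1108 (7.92%) the other way. Of the opposite genes, 0 met the rule. Of the 2017 genes without overlap, 1238 were past the test in both lines, 304 in E12 alone, 366 in E47 alone and 109 in neither. The size of the change differed between the lines (interaction test) in 774 of them (38.4%) and in 6800 (48.6%) of all genes tested. The rule removes every gene with opposite changes, which lowers the first share by construction.

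**Figure D1:**
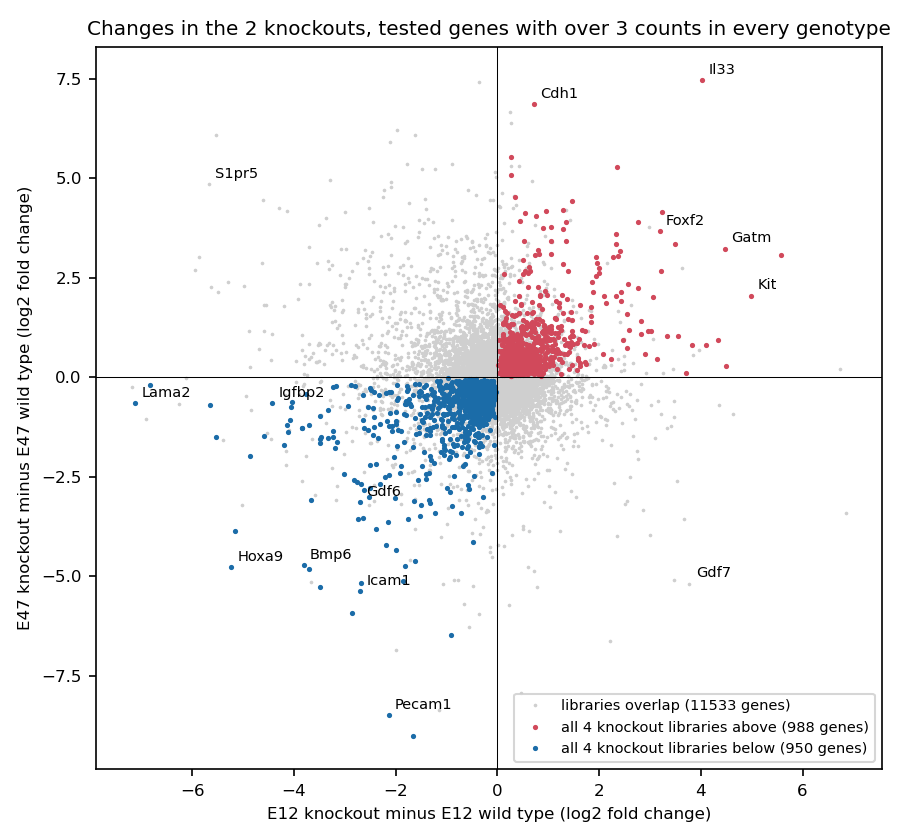
Each point is a tested gene with over 3 counts in every genotype, placed by its log2 change in the E12 knockout (horizontal) and the E47 knockout (vertical). Red points are the 988 genes whose knockout libraries all lay above the wild types, blue the 950 that lay below and grey the 11533 that overlapped. Il33 is at 4.03 and 7.47, Bmp6 at -3.81 and -4.71, and grey genes such as S1pr5 and Gdf7 moved in opposite directions.

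Tcf3 itself lay on the higher side. It was at 109 and 107 CPM (E12) and 94.5 and 93.7 CPM (E47) in the wild types, against 145 and 143 (E12) and 128 and 128 (E47) in the knockouts. The change was alike in size in the lines, 0.41 in E12 and 0.44 in E47, SE 0.0635 and 0.0636, and the test of the difference gave -0.03, SE 0.0897, adjusted p = 0.8. A count per gene does not show which isoform a library had lost. Tcf3 lies on chromosome 10 from 80409514 to 80433647 (GRCm38).

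The other 6 E and Id protein genes tested had overlapping libraries. Tcf4, which encodes the E protein E2-2, was at 18.6 and 19.5 CPM (E12) and 97.4 and 99.97 CPM (E47) in the wild types, against 48.2 and 46.7 (E12) and 81.5 and 87.5 (E47) in the knockouts, so the E47 wild type lay above both knockouts and the E12 wild type below. Tcf12, which encodes HEB, ranged only from 92.9 to 104 CPM over the 8 libraries. Id1, a direct target of BMP signalling, fell in the E12 knockout (log2 change -0.69) and rose in the E47 knockout (0.31), a call that did not hold without replicate 2 of the E47 wild type (adjusted p = 0.055) or replicate 2 of the E47 knockout (adjusted p = 0.07). Id2 was lower in both (-0.30 and -0.31, adjusted p = 0.044 and 0.02), but its libraries overlapped. The E12 call for Id2 was lost without replicate 1 of the E12 wild type (adjusted p = 0.176), replicate 2 of the E12 knockout (0.442), or replicate 1 or 2 of the E47 knockout (0.0519 and 0.0559). Its E47 call was lost without replicate 1 of the E47 wild type (adjusted p = 0.113) or replicate 1 of the E47 knockout (0.187). Twist2, a bHLH partner of E proteins, was higher without overlap, at 2.18 to 3.74 CPM in the wild types and 5.41 to 12.4 CPM in the knockouts, though another annotated gene covers 46.5% of its exons.

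Il33 and Bche had the widest gaps among genes with higher knockouts. Il33 encodes interleukin-33, a nuclear cytokine released from damaged stromal and barrier cells. Il33 was at 2.68 and 2.39 CPM (E12) and 0.645 and 0.663 CPM (E47) in the wild types, against 43.3 and 39.8 (E12) and 119 and 116 (E47) in the knockouts, so the lowest knockout library was 14.9 times the highest wild-type library. The log2 changes were 4.03 in E12 and 7.47 in E47, SE 0.118 and 0.129, larger in E47 (difference -3.44, SE 0.256, adjusted p = 4.4e-08). Il33 lies on chromosome 19 from 29925114 to 29960718. Bche, which encodes butyrylcholinesterase, was at 0.319 and 0.449 CPM (E12) and 0 and 0.117 CPM (E47) in the wild types, against 18.7 and 17.1 (E12) and 7.02 and 6.88 (E47) in the knockouts, a fold across the gap of 15.4. Bche was close to absent from both wild types, and the difference between the lines did not pass the test (adjusted p = 0.39).

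Foxf2, a forkhead factor of mesenchyme, separated the sides by 7.60 times with nearly the same level in both knockouts. It was at 0.766 and 0.747 CPM (E12) and 0.501 and 0.468 CPM (E47) in the wild types, against 6.52 and 7.51 (E12) and 6.5 and 5.82 (E47) in the knockouts. Its changes were 3.19 in E12 and 3.67 in E47, SE 0.245 and 0.255, and the difference was -0.47, SE 0.44, adjusted p = 0.4. Gatm, the first enzyme of creatine synthesis, was at 0.574 and 0.598 CPM (E12) and 0.573 and 0.741 CPM (E47) in the wild types, against 13.3 and 12.9 (E12) and 7.22 and 5.55 (E47) in the knockouts, with all wild-type libraries under 1 CPM. Cxcl15, a chemokine gene, was at 5.42 and 4.56 CPM (E12) and 5.59 and 5.5 CPM (E47) in the wild types, against 27.2 and 21.1 (E12) and 43.4 and 45.9 (E47) in the knockouts, and its neighbour Cxcl1 was higher as well, at 0.975 to 7.66 CPM in the wild types and 11.6 to 18.2 CPM in the knockouts. Mlph, a linker between Rab27 and myosin V, was at 4.99 to 15.1 CPM in the wild types and 40.7 to 53.1 CPM in the knockouts. The tenascin gene Tnxb was at 9.63 to 17.7 CPM in the wild types and 38.2 to 111 CPM in the knockouts, the metalloreductase gene Steap1 at 1.58 to 2.04 CPM in the wild types and 5.61 to 11.2 CPM in the knockouts, and the acyl-CoA thioesterase gene Acot1 at 0.546 to 1.08 CPM in the wild types and 3.21 to 9.32 CPM in the knockouts. Steap2, next to Steap1 on chromosome 5, and Steap4 were higher as well. The other members with the widest gaps were Ppm1e, Opcml, Grin2a, Rasgef1b and Xlr3b, each under 20 CPM in every library. Xlr3b had no count in the E12 wild type, at least 93.0-fold below the E12 knockout, and belongs to a family of near copies, so its count is uncertain.

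**Figure D2:**
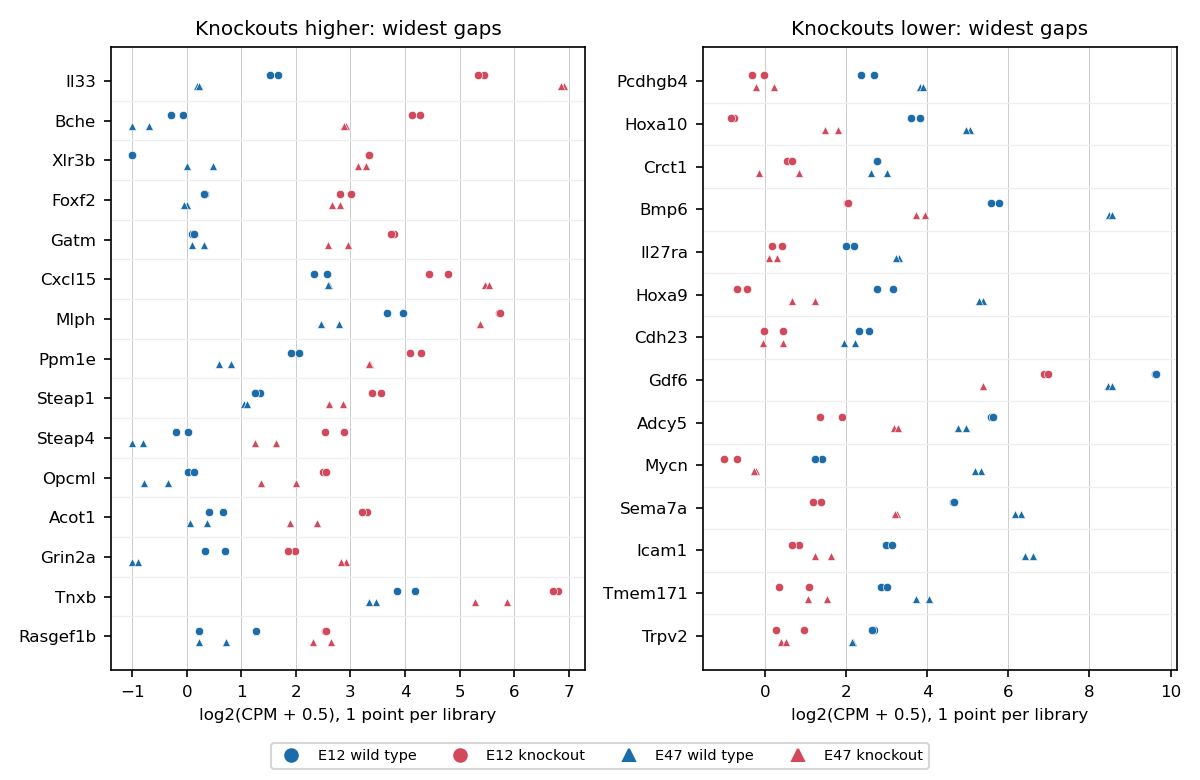
Levels as log2(CPM + 0.5), 1 point per library, for the named genes with the widest gaps, 15 with higher knockouts (left) and 14 with lower knockouts (right); circles are E12 and triangles E47 libraries, blue wild type and red knockout. In the left panel every red point lies right of every blue point, with Il33 in the top row, and in the right panel every red point lies left of every blue point.

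Genes with lower knockouts included 3 ligands of the BMP family. BMPs signal through SMAD proteins, and inhibitory SMADs and secreted antagonists limit them. Bmp6 was at 47.4 and 54.5 CPM (E12) and 356 and 373 CPM (E47) in the wild types, against 3.57 and 3.66 (E12) and 15 and 12.6 (E47) in the knockouts. Its changes were -3.81 in E12 and -4.71 in E47, SE 0.12 and 0.0973. Gdf6, another BMP-family ligand, was at 788 and 792 CPM (E12) and 353 and 378 CPM (E47) in the wild types, against 118 and 125 (E12) and 41.4 and 41.4 (E47) in the knockouts, and fell in both lines (-2.70 in E12 and -3.14 in E47, SE 0.070 and 0.0738). Bmp4 was lower by nearly the same factor in each line, -1.66 in E12 and -1.76 in E47, SE 0.0685 and 0.067, at 289 to 833 CPM in the wild types and 93.1 to 254 CPM in the knockouts, with the E12 wild type near the E47 knockout. Bmp6 lies on chromosome 13 from 38345107 to 38500302, next to Txndc5, another lower gene, which encodes an oxidoreductase of the endoplasmic reticulum and overlaps 5.74% of the exon length of Bmp6.

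Inhibitors of the pathway did not all behave alike. Smad6, an inhibitory SMAD, was at 219 and 224 CPM (E12) and 291 and 296 CPM (E47) in the wild types, against 51.5 and 49.3 (E12) and 123.4 and 130.1 (E47) in the knockouts. Smad7, the other inhibitory SMAD and also lower, was at 271 to 363 CPM in the wild types and 217 to 232 CPM in the knockouts. Smad6 fell more in E12 (-2.14) than in E47 (-1.21). Nog, which encodes the BMP antagonist noggin, had few counts, at 0.0716 to 2.62 CPM in the wild types and 0 to 0.052 CPM in the knockouts. Grem1, another antagonist, overlapped, at 1.6 and 1.12 CPM (E12) and 2.15 and 1.99 CPM (E47) in the wild types, against 0 and 0.0601 (E12) and 4.26 and 4.81 (E47) in the knockouts. Fst, which encodes the antagonist follistatin, was higher in both lines with overlapping libraries (0.39 in E12 and 0.49 in E47, SE 0.112 and 0.0831), and the ubiquitin ligase genes Smurf1 and Smurf2 overlapped too. Smad4 and Smad5, which carry the signal, lay higher, but no longer once chromosome medians were set to 0. Of 37 TGF-beta and BMP genes tested, 8 were lower and 4 higher without overlap, against 7.13% and 7.28% of all genes. These counts include Nog and Tgfbi, which passed the filter on low counts only through the side where they were high. The median mean change of the list was -0.20, against 0.00 for all genes. Gdf7, another ligand of the family, moved in opposite directions, from 1.15 and 0.673 to 13.8 and 11.7 CPM in E12 and from 53.9 and 55.1 to 1.51 and 1.47 CPM in E47.

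Ccn2 is known to be induced by TGF-beta. Ccn2, a matricellular growth factor, was at 3984 and 3964 CPM (E12) and 4317 and 4339 CPM (E47) in the wild types, against 1708 and 1646 (E12) and 3333 and 3383 (E47) in the knockouts, and the fall was larger in E12 (-0.88, SE 0.0875, adjusted p = 1.1e-06). Ltbp3, which tethers latent TGF-beta to matrix, was at 1307 to 1399 CPM in the wild types and 1046 to 1166 CPM in the knockouts. Tgfbi, also known as a TGF-beta-induced gene, lay on the other side with few counts, at 0.039 to 0.299 CPM in the wild types and 1.0 to 1.11 CPM in the knockouts, and Tgfbr3, a co-receptor, was higher as well (0.74 in E12 and 0.98 in E47, SE 0.107 and 0.108).

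Hox genes keep the positional identity of vascular cells, and those at the 5' ends of the clusters mark more posterior positions. Of 22 tested, 7 were lower, among them Hoxa6, Hoxa7, Hoxa9, Hoxa10, Hoxb9 and Hoxd8, and 1 was higher (Hoxb4) without overlap, against 7.13% and 7.28% of all genes. Hoxa9 was at 6.32 and 8.45 CPM (E12) and 40.9 and 38.4 CPM (E47) in the wild types, against 0.241 and 0.12 (E12) and 1.09 and 1.87 (E47) in the knockouts, and fell by 5.24 (SE 0.354) in E12 and by 4.78 (SE 0.179) in E47 on the log2 scale. Hoxa10 was at 13.7 and 11.7 CPM (E12) and 32.7 and 30.5 CPM (E47) in the wild types, against 0.0965 and 0.0601 (E12) and 2.29 and 3.01 (E47) in the knockouts, with 3 counts in the E12 knockout. Hoxb9 was at 24.2 and 25 CPM (E12) and 31.3 and 29.3 CPM (E47) in the wild types, against 0.531 and 0.421 (E12) and 18.7 and 18.7 (E47) in the knockouts, a larger fall in E12 (-4.96, SE 0.212, adjusted p = 8.6e-11). Hoxa6, Hoxa7, Hoxa9 and Hoxa10 are neighbours on chromosome 6, from 52206288 to 52240854. Hoxa6 and Hoxa7 overlapped once chromosome medians were set to 0, and Hoxa6 also with raw library totals. Other Hox genes joined with chromosome medians set to 0, when the list held 8 lower and 1 higher. With raw library totals it held 6 lower and 2 higher.

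The middle of the HoxA cluster did not follow its 5' end. Hoxa5 was at 28.9 and 28.8 CPM (E12) and 108 and 98.6 CPM (E47) in the wild types, against 50.6 and 49.6 (E12) and 23.8 and 27 (E47) in the knockouts, a rise in E12 (0.80) and a fall in E47 (-2.03), and Hoxa3 and Hoxa4 likewise moved in opposite directions. Hoxb4 was at 14.1 to 18.4 CPM in the wild types and 26.2 to 30.2 CPM in the knockouts (0.98 in E12 and 0.64 in E47, SE 0.099 and 0.0943). Hoxd8 was at 0.191 and 0.0747 CPM (E12) and 16.7 and 17.9 CPM (E47) in the wild types, against 0 and 0 (E12) and 0 and 0 (E47) in the knockouts, so that outside the E47 wild type it stayed at or below the floor of 3 counts. It is counted among the lower Hox genes but passed the filter on low counts only through the E47 wild type.

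**Figure D3:**
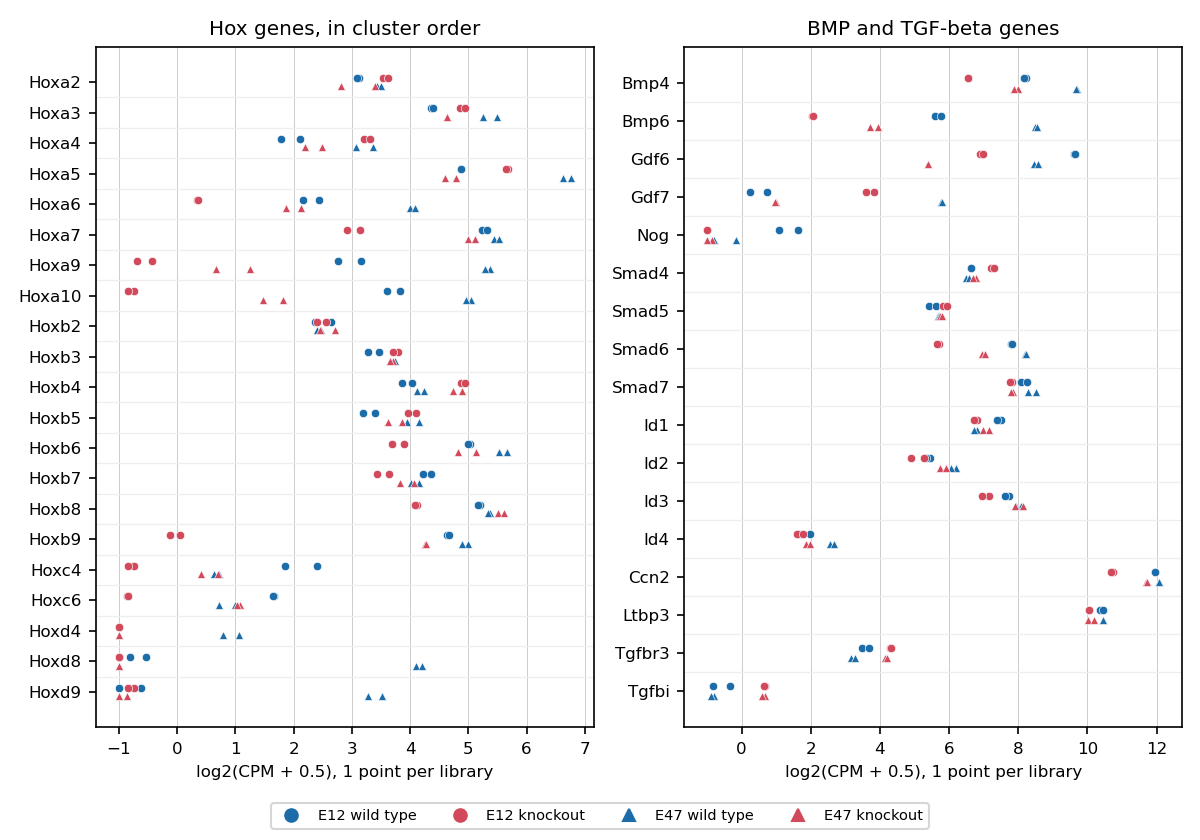
Levels as log2(CPM + 0.5), 1 point per library, of 21 Hox genes in cluster order (left) and of BMP and TGF-beta genes (right); circles are E12 and triangles E47 libraries, blue wild type and red knockout. Hoxa9 and Hoxa10 have all red points left of all blue points, while Hoxa5 has the E12 knockout right of its wild type and the E47 knockout left of it.

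Many chaperones of the endoplasmic reticulum (ER) were lower in both knockouts. The unfolded protein response raises these genes when unfolded protein builds up in the ER, through the sensors IRE1 (with XBP1), PERK (with ATF4) and ATF6. Of 31 genes of the integrated stress and unfolded protein response, 15 were lower and 1, Trib3, was higher without overlap, against 7.13% and 7.28% of all genes. The ER chaperone genes Canx, Pdia3 and Dnajb9 of the list had overlapping libraries. With a gap of at least 1.2 times, 4 were lower and 0 higher, against 2.05% and 1.72% of all genes. The median of the list was -0.46 in E12 and -0.23 in E47, against -0.01 and 0.01 for all genes. With raw library totals 7 of the 15 stayed below (Hsp90b1, Pdia6, Dnajc3, Sdf2l1, Manf, Edem1 and Sel1l). With chromosome medians set to 0 the list, then of 30 genes, held 15 lower and 0 higher. These were not the same 15, since Sdf2l1 then overlapped and Canx lay below. Of the 15 lower by the main rule, 8 differed between the 2 wild types by their own test, by at most 0.52 on the log2 scale (Sdf2l1).

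Hsp90b1, the ER chaperone GRP94, was at 1607 and 1585 CPM (E12) and 1464 and 1541 CPM (E47) in the wild types, against 1036 and 1105 (E12) and 1212 and 1182 (E47) in the knockouts. Pdia6, a protein disulfide isomerase, was at 659 and 619.8 CPM (E12) and 607 and 584 CPM (E47) in the wild types, against 464 and 450.0 (E12) and 439 and 436 (E47) in the knockouts, with changes of -0.48 in E12 and -0.45 in E47, SE 0.0645 and 0.0645. Manf, a secreted ER stress protein, was at 132 to 189.7 CPM in the wild types and 81.7 to 115 CPM in the knockouts and fell more in E12 (-1.12) than in E47 (-0.32). Hspa5, the master chaperone BiP, was at 1647 and 1616 CPM (E12) and 1256 and 1288 CPM (E47) in the wild types, against 998 and 1043 (E12) and 1139 and 1123 (E47) in the knockouts. Its E47 change of -0.17 was small beside that of E12 (-0.68, difference -0.51, SE 0.0889, adjusted p = 2.6e-04). Calr, Creld2, Dnajc3, Sdf2l1, Edem1, Sel1l, Pdia4, Herpud1, Chac1, Xbp1 and Atf4 made up the rest. Changes of these 11 ran from -0.95 (Creld2) to -0.33 (Sel1l) in E12 and from -0.52 (Edem1) to -0.13 (Xbp1) in E47, where Xbp1 and Atf4 did not pass the test (adjusted p = 0.15 and 0.085).

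Targets of ATF4 in amino acid synthesis were not among the lower genes. Asns, which encodes asparagine synthetase, changed by 0.44 in E12 and -0.32 in E47, and Phgdh and Shmt2 were likewise higher in E12 and lower in E47. Psat1, of serine synthesis, was higher in both lines (0.64 in E12 and 0.72 in E47, SE 0.0818 and 0.084) with overlapping libraries. Ddit3, which encodes CHOP, showed no change past the test, at 26.5 to 35.6 CPM. Atf3 fell in E12 (-1.07) and rose in E47 (1.36).

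**Figure D4:**
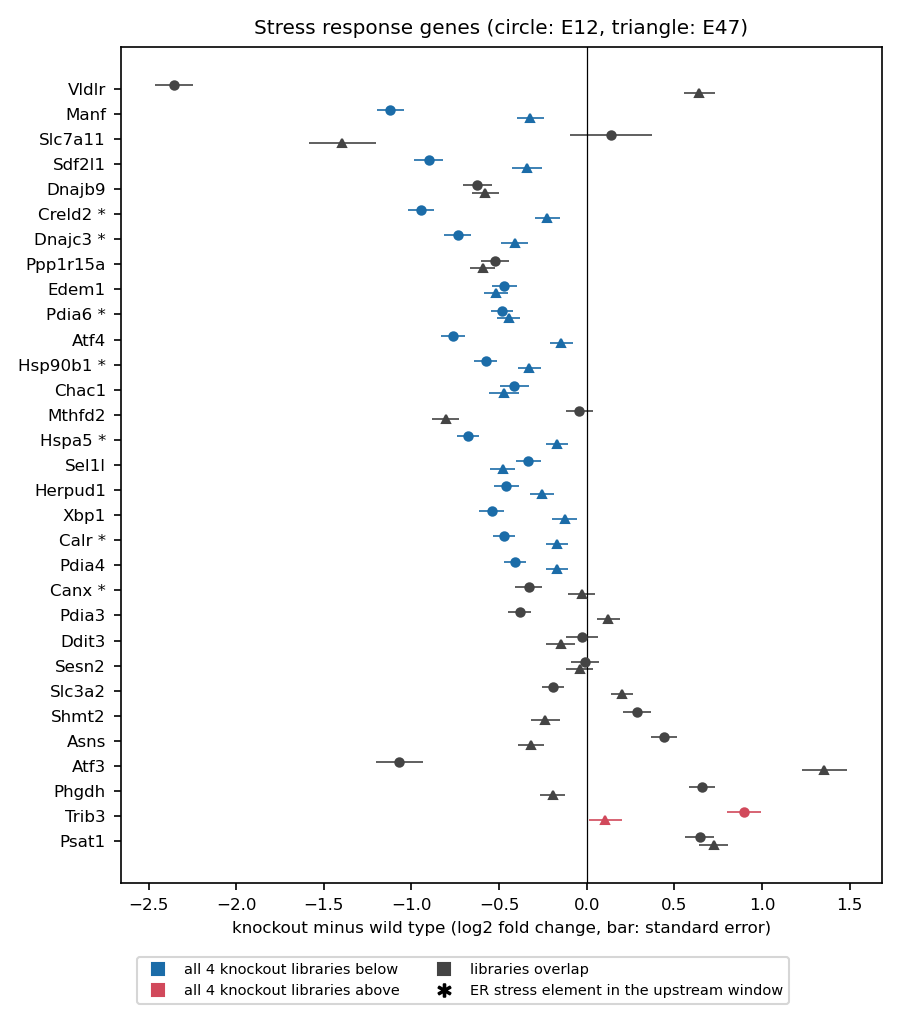
Log2 change with standard error of the 31 tested stress response genes in the E12 knockout (circles) and the E47 knockout (triangles), in order of the summed change; blue marks genes whose 4 knockout libraries all lay below the wild types, red those above, and an asterisk an ER stress element in the upstream window. The 15 blue genes lie left of 0 in both lines.

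The ER stress element, through which ATF6 acts, was searched in RefSeq promoter windows (GRCm38.p6, the 250 bases before each start), which are shown for the chaperone genes because these moved together. The motif searched was CCAAT, then 9 bases of any kind, then CCACG, on either strand. It occurred in 6 of 14 promoters of the lower stress response genes (42.9%; Calr, Creld2, Dnajc3, Hsp90b1, Hspa5 and Pdia6), in 1 of 18 promoters of the other members (5.56%; Canx) and in 16 of 13236 promoters of all tested genes (0.121%). The rule on these same values parted the lower members, many of them chaperones, from the others. Those others include amino acid synthesis genes such as Asns and the ER chaperone genes Canx, Pdia3 and Dnajb9. The shares are therefore a description of the list, and a link of the element to the knockouts was not tested. Of the 16 genes with it, 8 were lower and 2 higher without overlap, against 7.13% and 7.28% of all genes. The 8 include the 6 stress response genes just named, so they are not a separate count. Capitals mark the CCAAT and CCACG boxes, which read ATTGG and CGTGG where the element is on the other strand.
Calr (chr8:84847060-84847108, minus strand): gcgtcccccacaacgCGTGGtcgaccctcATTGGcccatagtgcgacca
Creld2 (chr15:88819505-88819553, plus strand): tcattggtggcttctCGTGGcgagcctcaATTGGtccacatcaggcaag
Dnajc3 (chr14:118937812-118937860, plus strand): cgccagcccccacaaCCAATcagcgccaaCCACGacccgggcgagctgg
Hsp90b1 (chr10:86705623-86705671, minus strand): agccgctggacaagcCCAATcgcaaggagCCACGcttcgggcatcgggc
Hsp90b1 (chr10:86705518-86705566, minus strand): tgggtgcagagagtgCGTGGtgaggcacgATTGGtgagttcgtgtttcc
Pdia6 (chr12:17266476-17266524, plus strand): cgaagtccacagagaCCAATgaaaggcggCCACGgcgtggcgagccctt
Canx (chr11:50325785-50325833, minus strand): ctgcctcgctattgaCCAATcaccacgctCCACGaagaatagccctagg
The spacing of 9 bases between the boxes is that of the motif, and the printed elements ended 79 to 193 bases before the start. The match in Hspa5 lies in an annotated exon and is not printed. Canx was lower in E12 (-0.33) and not past the test in E47 (-0.03, adjusted p = 0.77). Its libraries overlapped by the main rule, so the element was present both inside and outside that rule. With chromosome medians set to 0, Canx lay below. A match of letters is not a measurement of binding.

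Shares of promoters with an E-box were close to those of all genes. At least 1 CANNTG lay in 58.9% of the 954 promoters of genes with higher knockouts, in 58.5% of the 984 of genes with lower knockouts and in 57.2% of the 13236 of all tested genes. For CAGCTG, which CANNTG includes, the shares were 11.6%, 12.7% and 12%, and for CACCTG 12.6%, 16.4% and 15.1%. The Foxf2 window, shown because Foxf2 has a wide gap and a like level in both knockouts, holds a single E-box, of the CAGCTG form, in capitals here.
Foxf2 (chr13:31625566-31625815, plus strand): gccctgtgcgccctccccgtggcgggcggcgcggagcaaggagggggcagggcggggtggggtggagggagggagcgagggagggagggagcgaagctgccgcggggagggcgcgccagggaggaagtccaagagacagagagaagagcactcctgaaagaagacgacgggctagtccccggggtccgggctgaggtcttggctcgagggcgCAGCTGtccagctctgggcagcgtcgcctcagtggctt

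Of 39 structural matrix genes, 8 were lower and 1 higher without overlap, against 7.13% and 7.28% of all genes. With a gap of at least 1.2 times, 2 were lower and 0 higher, against 2.05% and 1.72%. Past the test, 26 were lower and 3 higher in E12, and 17 were lower and 13 higher in E47. Of all genes, 24.5% were lower and 21.9% higher in E12, and 27.5% and 27.7% in E47. In opposite directions were 9 of the 39, against 13.2% of all genes. Eln, which encodes elastin, was at 1031 and 1069 CPM (E12) and 2436 and 2559.7 CPM (E47) in the wild types, against 559 and 574 (E12) and 677 and 677 (E47) in the knockouts, and fell more in E47 (0.99, SE 0.0903, adjusted p = 4.0e-07). Lox, the enzyme that cross-links collagen and elastin, was at 4273 to 5023 CPM in the wild types and 2892 to 3684 CPM in the knockouts. The fibrillar collagen genes parted, with Col5a1 (-0.57 in E12 and -0.54 in E47, SE 0.0714 and 0.0712) and Col5a2 (-0.52 in E12 and -0.77 in E47, SE 0.0837 and 0.0839) lower and Col1a2 higher, at 5280.1 to 5737 CPM in the wild types and 6369.7 to 8262 CPM in the knockouts. Col1a1, Col3a1, Col5a3 and Col11a1 of the list had overlapping libraries. Lama2, a laminin chain of basement membranes, was at 59 and 92.2 CPM (E12) and 42.1 and 40 CPM (E47) in the wild types, against 0.531 and 0.541 (E12) and 24.7 and 27.4 (E47) in the knockouts, a fall of 7.12 (SE 0.275) in E12 and 0.66 (SE 0.154) in E47 on the log2 scale. Fbln1, Col18a1 and Lamb1 completed the lower members. Limk1, Eln, Mettl27 and Cldn3 formed a run of lower neighbours on chromosome 5.

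Contractile genes build the actin and myosin apparatus of smooth muscle. Of 28 tested, 13 were past the test as lower and 7 as higher in E12, and 20 as lower and 2 as higher in E47. Of all genes, 24.5% were lower and 21.9% higher in E12, and 27.5% and 27.7% in E47, so the 7 are near the share of all genes. In both lines 10 of the 28 were lower, against 8.63% of all genes, and 0 were higher, against 7.5%. Past the tests in opposite directions were 7, against 13.2%. Without overlap 3 were lower and 1 higher, against 7.13% and 7.28% of all genes. Actn1, alpha-actinin, was at 2525 and 2753 CPM (E12) and 2831 and 2944 CPM (E47) in the wild types, against 1359 and 1501 (E12) and 1799.5 and 1763 (E47) in the knockouts, and Cald1, caldesmon, was at 2274 to 3584 CPM in the wild types and 1561 to 2032 CPM in the knockouts. Des, desmin, was low, at 2.69 to 3.65 CPM in the wild types against 1.38 to 2.07 CPM in the knockouts. Myh11, smooth muscle myosin, was at 6.06 and 8.82 CPM (E12) and 97 and 99.5 CPM (E47) in the wild types, against 2.03 and 2.82 (E12) and 7.43 and 6.42 (E47) in the knockouts, so the E47 knockout overlapped the E12 wild type although Myh11 fell in both lines (-1.62 in E12 and -3.82 in E47, SE 0.207 and 0.124). Cnn1, calponin, had the same order, at 7.72 and 6.95 CPM (E12) and 106 and 101 CPM (E47) in the wild types, against 2.27 and 2.34 (E12) and 21 and 18.6 (E47) in the knockouts. Csrp1 was the member on the higher side, by 1.01 times, and its mean change was -0.0059 once chromosome medians were set to 0. Vim, which encodes vimentin and belongs to the list of modulated smooth muscle, was higher by a like amount in both lines (0.49 in E12 and 0.52 in E47, SE 0.0629 and 0.0629), at 3409 to 3778 CPM in the wild types and 4875 to 5212 CPM in the knockouts. Vcan, Lum and Dcn of that list were higher too, and Col8a1 was lower. These made 4 higher and 1 lower of 21 tested, against 7.28% and 7.13% of all genes. The rest of the list was mixed. Past the test, 9 of the 21 were higher and 8 lower in E12, and 12 were higher and 7 lower in E47. Of the 21, 7 were past the tests in opposite directions.

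Receptors, ligands and guidance cues added further lower genes. Sema7a, a membrane semaphorin, was at 24.4 and 25 CPM (E12) and 78.6 and 71.5 CPM (E47) in the wild types, against 1.79 and 2.1 (E12) and 9.04 and 8.69 (E47) in the knockouts, with changes of -3.67 in E12 and -3.07 in E47, SE 0.134 and 0.0926. Icam1, an adhesion molecule for leukocytes, was at 7.47 and 8.22 CPM (E12) and 97.2 and 84.9 CPM (E47) in the wild types, against 1.3 and 1.08 (E12) and 1.87 and 2.61 (E47) in the knockouts, a larger fall in E47 (2.67, SE 0.324, adjusted p = 8.5e-06) from a wild type that also held the endothelial markers. Igfbp2, an insulin-like growth factor binding protein, was at 1123 and 1042 CPM (E12) and 1562 and 1441 CPM (E47) in the wild types, against 48.3 and 51.9 (E12) and 955 and 948 (E47) in the knockouts, so that the E12 knockout was far below the other 3 genotypes. Csf1, the macrophage growth factor, was at 1454 to 2015 CPM in the wild types and 596 to 1077 CPM in the knockouts, and Ereg, an epidermal growth factor receptor ligand, at 23.9 to 42.9 CPM in the wild types and 12.5 to 20.5 CPM in the knockouts (-0.97 in E12 and -1.10 in E47, SE 0.0935 and 0.0826). Adcy5, an adenylyl cyclase, was at 47 and 48.6 CPM (E12) and 26.5 and 30.6 CPM (E47) in the wild types, against 2.08 and 3.24 (E12) and 8.58 and 9.29 (E47) in the knockouts, and Mycn, a MYC-family factor, was at 2.17 and 1.87 CPM (E12) and 39.4 and 35.5 CPM (E47) in the wild types, against 0 and 0.12 (E12) and 0.364 and 0.334 (E47) in the knockouts. Counts without overlap, lower and higher, were 7 and 3 of 33 cell adhesion genes, 7 and 2 of 41 growth factor and receptor genes, and 7 and 2 of 39 axon guidance genes, against 7.13% and 7.28% of all genes. The higher counts are thus near or below the share of all genes. In the same order of lists, 24, 24 and 18 were past the test as lower in E12 and 6, 8 and 8 as higher. In E47 18, 15 and 20 were lower and 9, 19 and 14 higher. Of all genes, 24.5% were lower and 21.9% higher in E12, and 27.5% and 27.7% in E47. In opposite directions were 5, 10 and 10, against 13.2% of all genes. With a gap of at least 1.2 times, 4, 2 and 3 were lower and 2, 1 and 0 higher, against 2.05% and 1.72%. The other named genes with the widest gaps were Pcdhgb4, Crct1, Il27ra, Cdh23, Tmem171 and Trpv2, each at most 16.1 CPM. Pcdhgb4 shares 38.3% of its exon length with neighbouring genes of its cluster, so its count is uncertain. Kit, the stem cell factor receptor, was on the higher side, at 0.829 and 0.598 CPM (E12) and 0.645 and 0.507 CPM (E47) in the wild types, against 22.3 and 24.3 (E12) and 1.72 and 3.07 (E47) in the knockouts, and so was Ntrk3, a neurotrophin receptor.

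The mitochondrial genome encodes some subunits of oxidative phosphorylation and the nucleus the others. Of 13 mitochondrially encoded mRNAs, 5 were lower without overlap (mt-Nd1, mt-Nd6, mt-Co2, mt-Atp8 and mt-Cytb), 0 were higher, against 7.13% and 7.28% of all genes, and 12 of 13 were past the test as lower in each line. With raw library totals 4 were lower. mt-Cytb was at 2232 and 3037 CPM (E12) and 3850.3 and 2881 CPM (E47) in the wild types, against 1431 and 1290.5 (E12) and 2036 and 2074 (E47) in the knockouts, and the replicate libraries of each wild type were unequal. All counts on mitochondrial symbols made up 1.11% to 2.13% of the wild-type libraries and 0.798% to 1.18% of the knockout libraries. Of 32 nuclear genes, 6 were higher (Atp5a1, Atp5c1, Ndufs1, Ndufs8, Sdha and Sdhc) and 0 lower without overlap, against 7.28% and 7.13% of all genes. Past the test, 5 were higher and 9 lower in E12, and 28 were higher and 0 lower in E47, 7 of them in opposite directions. Of all genes, 21.9% were higher and 24.5% lower in E12, 27.7% and 27.5% in E47, and 13.2% opposite. The E12 counts are thus near or below the shares of all genes. Atp5a1, an ATP synthase subunit, was at 490.4 and 458 CPM (E12) and 374 and 369 CPM (E47) in the wild types, against 764 and 772 (E12) and 515 and 515 (E47) in the knockouts. The gaps of these 6 were 1.01 to 1.06 times, and 3 of them (Atp5c1, Ndufs1 and Ndufs8) stayed higher with chromosome medians set to 0.

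Of 32 glutathione and NRF2 target genes, 5 were higher and 3 lower, against 7.28% and 7.13% of all genes, so that the lower count is near the background. The higher genes included Aldh3a1, an aldehyde dehydrogenase, at 102 and 100.5 CPM (E12) and 10.5 and 11 CPM (E47) in the wild types, against 257 and 236 (E12) and 179 and 215 (E47) in the knockouts, and Gstm1, a glutathione transferase, at 56.3 to 68.3 CPM in the wild types and 94.6 to 109 CPM in the knockouts. Sod3, the extracellular superoxide dismutase, was lower (-1.48 in E12 and -1.09 in E47, SE 0.0759 and 0.0745). Of 28 immediate early genes, 4 were higher (Egr1, Egr2, Ier5 and Nr4a1) and 2 lower (Dusp6 and Fosl2), the second count again near the 7.13% of all genes. Egr1, an early growth response factor, was at 367 and 398 CPM (E12) and 197 and 221 CPM (E47) in the wild types, against 696 and 605 (E12) and 562 and 598 (E47) in the knockouts, while Dusp6, a phosphatase that limits ERK, was at 28 and 29.2 CPM (E12) and 51.7 and 51.4 CPM (E47) in the wild types, against 13.4 and 14.1 (E12) and 20.1 and 22.4 (E47) in the knockouts. Of cell cycle genes, 0 were higher and 2 lower of 50 G2/M genes, and 1 and 3 of 46 G1/S genes, where 7.28% and 7.13% of all genes were. Past the test, 12 G2/M genes were higher and 6 lower in E12, and 2 were higher and 34 lower in E47. Of all genes, 21.9% were higher and 24.5% lower in E12, and 27.7% and 27.5% in E47, so the 12 are near the share of all genes. Of 16 histone genes 0 met the rule, with 3 higher and 1 lower past the test in E12 and 0 higher and 10 lower in E47. The 3 are again near the share of all genes. None of 6 CDK inhibitor genes or 26 interferon-stimulated genes met the rule. Ccne1, cyclin E1, was lower, at 12.8 to 13.8 CPM in the wild types and 8.69 to 9.9 CPM in the knockouts (-0.45 in E12 and -0.57 in E47, SE 0.112 and 0.112).

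Markers of other cell types moved with the sides in part. Of 15 tested endothelial markers, 6 were lower without overlap (Pecam1, Cdh5, Flt1, Vwf, Egfl7 and Icam2) and 0 higher, against 7.13% and 7.28% of all genes. Icam2 was at 0.0638 and 0.0747 CPM (E12) and 6.45 and 6.12 CPM (E47) in the wild types, against 0 and 0 (E12) and 0.052 and 0 (E47) in the knockouts, with 1 count in each E12 wild-type library, and so passed the filter on low counts only through the E47 wild type. Pecam1 was at 1.85 and 2.24 CPM (E12) and 211 and 194 CPM (E47) in the wild types, against 0.434 and 0.481 (E12) and 0.572 and 0.535 (E47) in the knockouts, so that in E12 it was near absent on both sides. Cdh5 was at most 0.468 CPM in the knockouts. Pecam1 and Cdh5 passed the filter only through the wild types, so the count of 6 is a description. Flt1 was more even between the lines, at 33.6 and 36.1 CPM (E12) and 29.8 and 25.2 CPM (E47) in the wild types, against 23 and 22.8 (E12) and 15.3 and 16.4 (E47) in the knockouts. The summed level of 16 mesothelial and epithelial markers was 1801 and 1932 CPM (E12) and 352 and 371 CPM (E47) in the wild types, against 1117 and 1150 (E12) and 586 and 605 (E47) in the knockouts. Of 12 tested, 2 were higher (Krt14 and Cdh1) and 0 lower without overlap, against 7.28% and 7.13% of all genes. Past the test, 4 of the 12 were higher and 8 lower in E12, and 10 were higher and 2 lower in E47. Of all genes, 21.9% were higher and 24.5% lower in E12, and 27.7% and 27.5% in E47. In opposite directions were 8 of the 12, against 13.2% of all genes. The part of such cells in the gene groups above was not tested.

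The members were spread unevenly over the chromosomes. On chromosome 18, 89 of 375 tested genes were higher and 13 lower, against 138 and 34 of 806 on chromosome 1, 71 and 22 of 520 on chromosome 13, and 18 and 122 of 771 on chromosome 9. The median log2 change of all genes with a mean of at least 2 CPM was 0.54 in E12 and 0.10 in E47 on chromosome 18, 0.31 and 0.12 on chromosome 1, and -0.35 and -0.0047 on chromosome 9. On chromosome 18 the E12 median was between 0.43 and 0.78 in each of 9 windows of 10 Mb, so the shift ran along the whole chromosome. When each library's chromosome medians were set to 0, a setting chosen after seeing the data, there were 23 higher and 29 lower genes on chromosome 18, 61 and 61 on chromosome 1, 41 and 40 on chromosome 13, and 53 and 44 on chromosome 9. Over the genome 916 genes were then higher and 1015 lower, of which 697 and 751 were members by the main rule. What the chromosome-wide shifts come from was not tested.

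**Figure D5:**
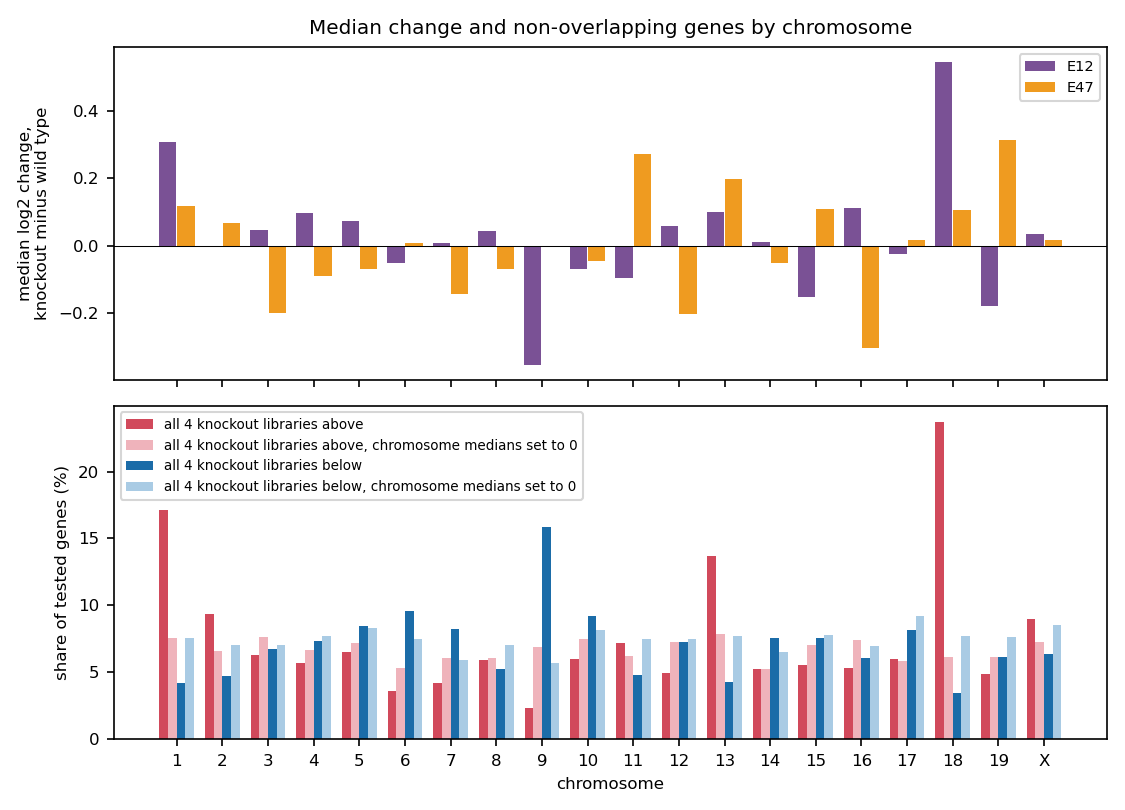
Top, median log2 change of genes with a mean of at least 2 CPM on each chromosome in the E12 (purple) and E47 (orange) knockouts. Bottom, share of tested genes whose 4 knockout libraries all lay above (red) or below (blue) the wild types, with pale bars after chromosome medians were set to 0; chromosome 18 has 89 higher genes before and 23 after.

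Neighbouring members also ran together on a smaller scale. The longest run of adjacent tested genes in the same direction was 6 lower genes on chromosome 7 (Spon1, Rras2, Copb1, Psma1, Pde3b and Cyp2r1). Runs of 4 included the HoxA genes above, the elastin region, and Usp40 with 3 members of the Ugt1a family, which share exons and are uncertain as counts. Genes on the lower side had longer exons in total (median 4952 bases) than those on the higher side (3997 bases), with 4296 bases for all tested genes.

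At the edge of the rule, the values show how little separates a member from a gene outside it. Dync1i1 was just inside, at 19.4 and 19.1 CPM (E12) and 1.58 and 1.25 CPM (E47) in the wild types, against 0.0965 and 0.24 (E12) and 1.25 and 1.14 (E47) in the knockouts, with nearly all of its change in E12. Ints3 and Ptma were the other members with the narrowest gaps. Coq4 and Zscan12 were just outside, with wild types at 4.76 to 7.02 and 7.47 to 9.31 CPM and knockouts at 7.02 to 8.16 and 9.31 to 10.6 CPM. The filter on low counts had left out 12677 of 26669 genes with at least 1 count, and of these 95 were higher and 160 lower without overlap.

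Genes past both tests in opposite directions formed the counterpart. S1pr5, a sphingosine-1-phosphate receptor, was at 96.6 and 95.2 CPM (E12) and 0.501 and 0.351 CPM (E47) in the wild types, against 2.27 and 1.38 (E12) and 11.9 and 11.8 (E47) in the knockouts, falling in E12 and rising in E47. Epn3, Mal2 and Ripk4, genes expressed in epithelia, had the same order. Pgm5, a muscle protein of adherens junctions, was at 0.829 and 0.598 CPM (E12) and 42.4 and 44.6 CPM (E47) in the wild types, against 6.9 and 4.51 (E12) and 2.86 and 2.74 (E47) in the knockouts, rising in E12 and falling in E47, and Tnik, a kinase of Wnt signalling, did likewise.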

How the data were processed

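The deposited table holds raw counts per gene for 8 libraries of unstranded, poly(A)-selected mRNA, made by the authors with FastQC, HISAT and featureCounts on GRCm38 (mm10), per the submitters' processing notes, which name no versions. Of 55353 rows, 26 had symbols turned into dates by a spreadsheet and are not reported by name. edgeR 4.0.16 (R 4.3.3) kept 13992 genes with its default filter on low counts, scaled them by TMM and fitted quasi-likelihood models with Benjamini-Hochberg adjustment at 0.05. The model of 4 groups has 4 residual degrees of freedom, and that of 4 summed genotype profiles has 2. DESeq2 1.42.0, RLE scaling, raw library totals, no filter, a block for the line and leaving out each library were alternatives. Scripts were tested on simulated data.

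Genes described were those without overlap. Named genes with a mean of at least 2 CPM are the 15 a direction with the widest gap on the log2(CPM + 0.5) scale, up to 4 per kind of opposite change and the 3 nearest the edge on each side. Up to 4 per gene list, and the E and Id genes with smooth muscle and sex-specific controls, were named without that floor. Further members of the stress response, Hox, BMP, matrix, oxidative phosphorylation and endothelial lists, and neighbours in runs, were named after their values were seen. Members and lists were chosen with earlier results of these data known. Annotation was GENCODE M21, which matched 13780 of the tested genes; promoters came from RefSeq and matched 10332. A few results are not reported here. Counting reads without strand cannot tell a gene from an overlapping partner.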

Additional observations from a re-analysis of the deposited data

Results flagged for a closer look

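Of the 165 genes named above, 93 were past the test of the difference between the E12 and the E47 change in the model of 8 libraries (edgeR quasi-likelihood test, adjusted p under 0.05), against 48.6% of all genes tested. Of these, 9 had a genotype with 3 counts or fewer and are given no value. For the other 84, the value is the E12 log2 change minus the E47 log2 change. The 165 genes were named in part for their values in these data, some for opposite changes. Their share past the test is therefore a description.

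The 2 changes had opposite signs in 14 genes, with differences of S1pr5 -10.52, Epn3 -8.53, Atf3 -2.42, Id1 -0.99, Shmt2 0.52, Asns 0.76, Phgdh 0.85, Hoxa3 1.28, Tcf4 1.54, Hoxa4 2.37 and Hoxa5 2.82. Further values were Tnik 6.13, Pgm5 6.95 and Gdf7 8.96. Negative values are falls in E12 beside rises in E47.

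Where both changes were negative, the differences were Dync1i1 -6.65, Lama2 -6.46, Hoxb9 -4.96, Igfbp2 -3.78, Fbln1 -2.50, Adcy5 -2.50, Hoxa7 -1.88, Smad6 -0.93, Ccn2 -0.88, Mettl27 -0.82 and Manf -0.80. Further values were Creld2 -0.72, Atf4 -0.62, Sema7a -0.60, mt-Co2 -0.56, Sdf2l1 -0.56, Hspa5 -0.51, Xbp1 -0.42, Sod3 -0.39, Lox -0.37, Limk1 -0.37 and Csf1 -0.36. Next came Dnajc3 -0.33, Canx -0.30, Calr -0.30, Hsp90b1 -0.25, Pdia4 -0.24, Smurf1 0.33, Cald1 0.37, Gdf6 0.44, Acta2 0.50, mt-Nd6 0.60 and Cnn1 0.71. The rest were Bmp6 0.90, Txndc5 0.91, Eln 0.99, Lamb1 1.10, Col8a1 1.14, Il27ra 1.42, Col18a1 2.03, Myh11 2.19, Icam1 2.67, Egfl7 3.0 and Vwf 5.57. The rest were Pecam1 6.35 and Cdh5 7.36. A negative value is a larger fall in E12 and a positive value a larger fall in E47.

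Where both changes were positive, they were Cdh1 -6.14, Dcn -5.28, Il33 -3.44, Ntrk3 -2.90, Aldh3a1 -2.90, Cxcl1 -2.43, Egr2 -2.32, Vcan -1.28, Mlph -0.92, Nr4a1 -0.81 and Cxcl15 -0.74. Further values were Egr1 -0.71, Ndufs8 -0.43, Atp5c1 -0.38, Csrp1 0.24, Smad5 0.30, Hoxb4 0.35, Col1a2 0.37, Smad4 0.41, Steap2 0.67, Usp40 0.68 and Trib3 0.79. Next came Gatm 1.24 and Kit 2.95. A positive value is a larger rise in E12. The E47 wild type, which stood apart in endothelial transcripts, enters every one of these differences, and its part was not tested.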

How the results depend on the processing

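The count of genes without overlap rests on the scaling and on the width of gap asked for. Raw library totals gave 1814 higher and 577 lower genes against 1019 and 998, and a gap of at least 1.2 times gave 241 and 287, with 29 and 49 members of the gene lists against 64 and 117. With both libraries of the E47 wild type left out, an alternative added once the data had been seen, 2249 and 2315 genes and 148 and 221 list members were found. Leaving libraries out can only raise these counts. Without 1 library at a time they were 1126 to 1458 higher and 1050 to 1487 lower genes. In the test of 4 genotype profiles, against 0 genes called and 360 at an unadjusted p under 0.05, no filter on low counts gave 4 higher, 1 lower and 1130 unadjusted, DESeq2 gave 15, 36 and 667, and the line as a block gave 0 called and 778 unadjusted. A test of the mean change over 8 libraries, which counts the extractions and not the genotypes, called 3572 higher and 3729 lower.

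Among 181 values of 163 genes named by the rule, few changed direction. The E47 change of Id3 was -0.0001232 with RLE scaling and -0.00018893 with DESeq2, and ran from -0.10202 to 0.12875 with 1 library left out. That of Tcf12 in E12 ran from -0.023078 to 0.058842, and that of Id4 in E12 from -0.33266 to 0.023149. The mean change of Csrp1 was -0.0059461 with chromosome medians set to 0. Calls were lost in 33 cases with 1 library left out, in 6 with chromosome medians set to 0, in 5 with DESeq2 and in 1 with RLE scaling; the cause was not tested. No paired analysis was possible because the replicate numbers only follow the order of the samples and tie no library of a genotype to a library of another. At these depths the floor of 3 counts lies between 0.109 and 0.216 CPM per library.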

Other observations

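Some other parts of the secretory pathway lay on the lower side as well. These 4 families were chosen after the values of the chaperone genes were seen, so their counts are a description. Proteins enter the ER through a translocation channel, are glycosylated by the oligosaccharyltransferase and leave in vesicles with a COPII coat, while COPI vesicles return cargo to the ER. Of 57 genes tested in the 4 families, 21 (36.8%) were lower without overlap and 0 higher, against 7.13% and 7.28% of all genes tested. They were 7 of 14 COPII coat genes, 7 of 11 oligosaccharyltransferase genes, 4 of 9 COPI coat genes and 3 of 23 translocation genes. The translocation share of 13% is near that of all genes, and the median log2 change of that family was -0.26 in E12 and -0.05 in E47.

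The lower COPII members were Sec13, Sec23a, Sec24a, Sec24b, Sec24c, Sec24d and Sec31a, and those of the oligosaccharyltransferase Ddost, Magt1, Ostc, Rpn1, Rpn2, Stt3a and Stt3b. Past the test, 35 genes of the families were lower and 3 higher in E12, and 28 were lower and 7 higher in E47 (edgeR quasi-likelihood test). Of all genes, 24.5% were lower and 21.9% higher in E12, and 27.5% and 27.7% in E47. The median log2 change of the families was -0.28 in E12 and -0.18 in E47. The pattern depends on the scaling, since with raw library totals 6 were lower and 2 higher. The 6 were 3 COPII and 3 oligosaccharyltransferase genes, with 0 of the COPI and 0 of the translocation genes.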
